A study of Homo sapiens with 8 samples.

Results

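The metallothioneins and the zinc exporter SLC30A1, together with MTF1, the transcription factor that senses zinc, were followed in 293T cells exposed to EerI and to a pair of structurally related compounds. Members were all probe sets whose platform annotation names MT1E, MT1F, MT1G, MT1H, MT1M, MT1X, MT2A, SLC30A1 or MTF1. This gave 17 probe sets of 9 genes out of 54675 probe sets on the array, which name 19775 genes singly, and each of the 17 carried a single gene symbol. Of these, 11 belonged to 7 metallothionein genes, 3 to SLC30A1 and 3 to MTF1. Affymetrix arrays measured RNA in cells treated with EerI, with CBU-028 or with 5-NA, each at 10 µM for 10 h, and in control cells, with 2 arrays in each group. EerI (eeyarestatin I) is an inhibitor of ER-associated degradation in which a nitrofuran part, termed the NFC domain, is linked to an aromatic domain that binds membranes. CBU-028 carries the NFC domain joined to a different aromatic group, and 5-NA (5-nitrofuryl-acrolein) corresponds to the NFC domain alone. The source and description labels name 5-NA for the arrays called 5-NA here, but their titles give only a number, which matches the library code listed for another CBU compound in the study's supplement (the titles of the CBU-028 arrays carry the code of CBU-028 itself). The values called 5-NA and their structural comparisons therefore hold only if the source labels are right. 293T is a human embryonic kidney line that carries SV40 large T antigen, so all groups share that transformed background and the results rest on 1 cell line. The methods state that treatments were done in duplicate, and a legend of the study speaks of a biological replicate; separate cultures are not stated for each array, nor what solvent control cells received. The p-values measure the spread between these arrays.

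Metallothioneins are small cysteine-rich proteins that bind zinc, copper and cadmium and buffer the free metal in the cytosol. When zinc is plentiful, MTF1 binds zinc, enters the nucleus and activates metallothionein genes and SLC30A1 through short metal response elements in their promoters. SLC30A1 (ZnT1) sits in the plasma membrane and moves zinc out of the cell, so both arms of this response lower free zinc, by binding it or by exporting it. Cadmium, oxidants and glucocorticoids are also known to induce metallothioneins.

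The metallothionein genes measured lie in a cluster on chromosome 16, and the cluster spans chr16:56565073-56684196 on GRCh38.p14 with 16 metallothionein genes and pseudogenes in 119.1 kb. SLC30A1 lies at chr1:211571568-211579161 and MTF1 at chr1:37809574-37859592. RefSeq promoter sequences were matched for 5 of the 9 genes, MT2A, MT1X, MT1H, SLC30A1 and MTF1. Entries for MT1E, MT1F, MT1G and MT1M were not matched. Of the matched promoters, 3 are shown because MT1X had the largest decrease among the members, MT2A was among the brightest metallothionein probe sets, and SLC30A1 moved the other way. Each is the 250 bases before the annotated gene start, read 5′ to 3′ on the strand of the gene, with matches to the core of the metal response element in capitals. The core was searched as TGCACNC and TGCGCNC on both strands, so that a match on the opposite strand appears as its reverse complement. MT1X is on the plus strand at chr16:56682220-56682469, MT2A on the plus strand at chr16:56608334-56608583, and SLC30A1 on the minus strand at chr1:211579162-211579411.
MT1X: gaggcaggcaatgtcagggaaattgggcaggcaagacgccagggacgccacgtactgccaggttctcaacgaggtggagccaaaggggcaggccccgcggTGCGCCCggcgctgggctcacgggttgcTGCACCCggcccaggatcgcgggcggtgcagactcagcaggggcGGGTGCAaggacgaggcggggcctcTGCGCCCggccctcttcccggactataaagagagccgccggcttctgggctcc
MT2A: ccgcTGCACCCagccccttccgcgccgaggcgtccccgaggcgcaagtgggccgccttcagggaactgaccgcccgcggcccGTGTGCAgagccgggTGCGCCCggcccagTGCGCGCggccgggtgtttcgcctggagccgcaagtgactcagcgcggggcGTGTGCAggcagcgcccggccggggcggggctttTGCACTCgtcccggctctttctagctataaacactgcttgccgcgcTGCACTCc
SLC30A1: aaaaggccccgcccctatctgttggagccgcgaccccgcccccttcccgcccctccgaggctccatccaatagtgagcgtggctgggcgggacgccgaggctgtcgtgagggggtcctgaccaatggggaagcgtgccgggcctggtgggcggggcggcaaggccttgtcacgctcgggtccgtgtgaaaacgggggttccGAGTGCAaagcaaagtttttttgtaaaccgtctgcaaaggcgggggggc

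MT2A held 7 core matches, MT1H 8 and MT1X 4, against 1 in SLC30A1 and 0 in MTF1. Among 35116 RefSeq promoter windows of the same length, 24.8% held at least 1 match, 0.37% held at least 4, 0.0313% at least 7 and 0.0171% at least 8. The match nearest the gene start began 8 bases upstream in MT2A and in MT1H, 53 bases upstream in MT1X and 49 bases upstream in SLC30A1. Matches that began 53 or 54 bases upstream on the sense strand occurred in all 3 metallothionein promoters. The core of the antioxidant response element, TGACNNNGC, was searched in the same way; it occurred once in MT2A, MT1X and SLC30A1, was not found in the windows of MT1H or MTF1, and was held by 10.9% of all windows. No match to it overlapped a match to the metal response element core. A match says only that these letters occur in the window.

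**Figure D1:**
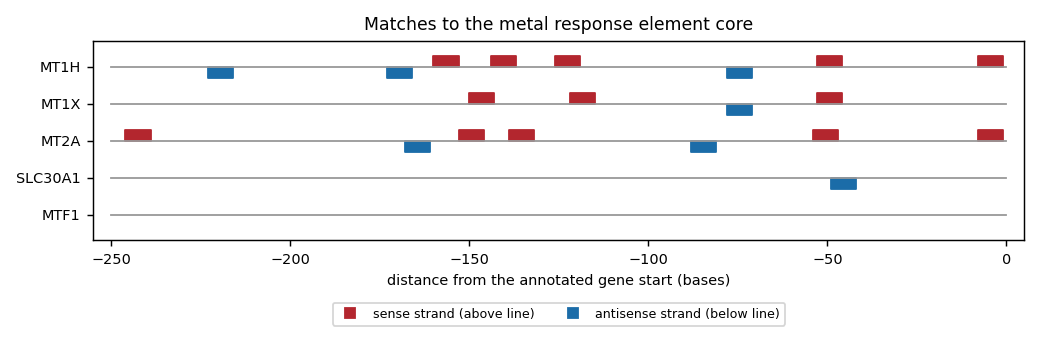
Positions of matches to the metal response element core in the 250 bases before the annotated start of 5 member genes. The horizontal axis is the distance from the gene start in bases, red blocks above a line are matches on the sense strand and blue blocks below it on the antisense strand. The 3 metallothionein promoters hold between 4 and 8 matches, SLC30A1 holds 1 and MTF1 holds 0.

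The values are log2 expression levels summarised by RMA, so a difference of 1 is a 2-fold change. Duplicate arrays correlated at r between 0.9953 and 0.9984 across probe sets, and the spread between duplicates was largest in CBU-028 cells (residual SD 0.163) and smallest in control cells (0.0921). The 3′ minus 5′ difference of the ACTB control probe sets, a measure of RNA integrity, was 0.0743 to 0.196 on 7 arrays and 0.363 on 5-NA replicate 2. That of GAPDH was -0.112 to -0.0668 on the same 7 arrays and 0.0129 on 5-NA replicate 2, so this array was highest for both genes. The 18S ribosomal RNA control probe sets differed from control by -0.06 to 0.32 with EerI, by 0.59 to 0.98 with CBU-028 and by 0.52 to 1.05 with 5-NA, and the 28S probe sets by -0.13 to 0.30, -0.11 to 0.36 and 0.15 to 1.39. The part of RNA integrity and ribosomal RNA in the member results was not tested. Among markers of the HEK293 line, NEFL averaged 13.40 and KRT18 12.27, but PAX2 only 6.70. The B cell markers PTPRC and MS4A1 averaged 4.63 and 5.45, while CD79B, CD22 and CD79A averaged 6.96, 7.38 and 7.73. The marker levels therefore did not split cleanly between the 2 lists. Of 6 HEK293 markers, 0 passed with EerI, 2 fell with CBU-028, and 2 rose and 1 fell with 5-NA; leaving out 1 array gave 0 to 2 lower with CBU-028, and 0 to 2 higher and 0 to 1 lower with 5-NA. Over all 19775 genes, 0.506% were called higher and 0.263% lower with EerI, 5.49% and 7.1% with CBU-028, and 7.87% and 10.9% with 5-NA, which is the background for the gene lists. Among the other markers, 0 of 5 B cell markers passed with any compound by limma (1 was lower with 5-NA at unadjusted p under 0.05). Levels of different probe sets cannot be compared with each other on these arrays. In bulk RNA, less RNA per cell and fewer cells that express a gene cannot be told apart.

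With 5-NA, 7 of 11 metallothionein probe sets fell, while 2 of 3 probe sets of the zinc exporter SLC30A1 and 1 of 3 of MTF1 rose. In limma's test across all probe sets with Benjamini-Hochberg adjustment (called at adjusted p under 0.05), 7 of the 17 member probe sets fell against a background of 7.9% of all probe sets called lower, and 3 rose against 7.32% called higher. Those that fell belonged to MT1X, MT1H, MT1F, MT1G and MT2A. With CBU-028, 3 metallothionein probe sets fell, where 5.27% of all probe sets were called lower, and 0 members rose by limma, where 4.4% were called higher (2 were higher at unadjusted p under 0.05, and the methods' ANOVA with adjusted p gave 0). With EerI, 0 of 17 passed in either direction, where 0.357% of all probe sets were called higher and 0.17% lower. At unadjusted p under 0.05 in the same limma fit, 1 member was higher and 1 lower with EerI, and the methods' ANOVA gave 0 and 0. The number that fell with 5-NA was 3 without 5-NA replicate 1, control replicate 1 or control replicate 2, and the number that rose was 1 without either control array. The number that fell with CBU-028 was 0 without CBU-028 replicate 1, control replicate 1 or control replicate 2, 1 without either EerI array and 6 without CBU-028 replicate 2. Over the 11 metallothionein probe sets the median log2 fold change against control was 0.05 with EerI, -0.34 with CBU-028 and -0.43 with 5-NA, beside medians over all probe sets of 0.01, 0.00 and -0.01.

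**Figure D2:**
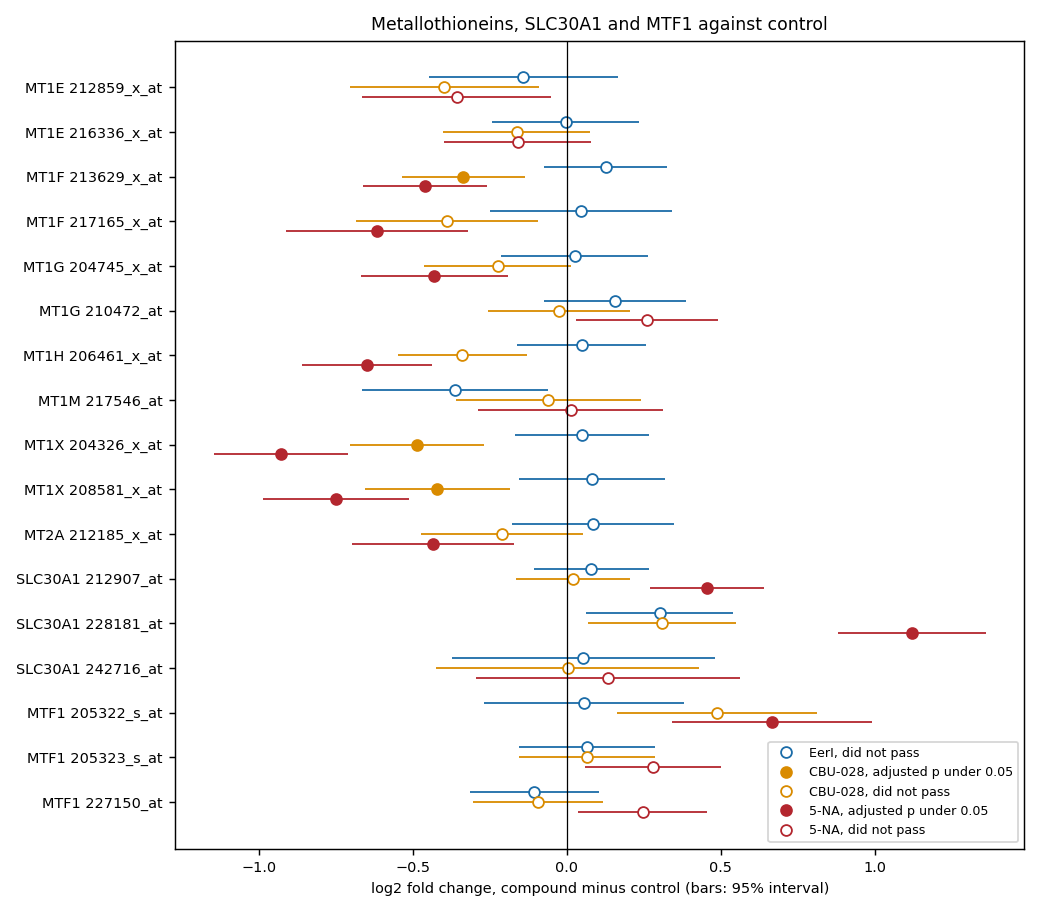
Log2 fold change against control of the 17 member probe sets with EerI (blue), CBU-028 (orange) and 5-NA (red); bars are 95% intervals from limma, and filled points passed at adjusted p under 0.05. The filled red points lie left of 0 for 7 metallothionein probe sets, with MT1X 204326_x_at farthest at -0.93, and right of 0 for SLC30A1 and MTF1, with SLC30A1 228181_at farthest at 1.12.

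MT1X, a metallothionein expressed in many tissues, had the largest decrease among the members. Probe set 204326_x_at read 12.13 and 12.20 with EerI, 11.54 and 11.72 with CBU-028 and 11.10 and 11.28 with 5-NA, against 12.11 and 12.12 in control cells. Both 5-NA arrays lay below both CBU-028 arrays, which lay below both control arrays, while the EerI arrays lay just above control. The log2 fold change was -0.93 with 5-NA (SE 0.0965, adjusted p = 0.000598), a 1.9-fold decrease, and -0.49 with CBU-028 (adjusted p = 0.0146). With EerI it was 0.05 (95% interval -0.17 to 0.27). This probe set is annotated to MT1X, but the accession behind it is that of MT1L, a transcribed pseudogene of the same cluster, in RefSeq. The other probe set, 208581_x_at, whose accession is that of MT1X, read 12.14 and 12.19 with EerI, 11.58 and 11.75 with CBU-028 and 11.20 and 11.47 with 5-NA, against 12.09 and 12.08 in control cells. It showed the same order of groups without overlap between 5-NA, CBU-028 and control, and fell by 0.75 with 5-NA (adjusted p = 0.00213) and by 0.42 with CBU-028 (adjusted p = 0.0372). Both 5-NA calls were kept when any 1 array was left out. The CBU-028 call on 204326_x_at was lost without CBU-028 replicate 1 (adjusted p = 0.0517), control replicate 1 (0.102) or control replicate 2 (0.101), within a range of 0.00158 to 0.102 over the alternatives. That on 208581_x_at was lost without either EerI array (0.0698 each), CBU-028 replicate 1 (0.121), control replicate 1 (0.196) or control replicate 2 (0.168), within a range of 0.00687 to 0.196.

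MT1H, another cluster gene that encodes a zinc- and copper-binding metallothionein, followed the same order. Its probe set 206461_x_at read 11.31 and 11.36 with EerI, 10.86 and 11.04 with CBU-028 and 10.56 and 10.71 with 5-NA, against 11.29 and 11.29 in control cells. The 5-NA arrays were the lowest and did not overlap those of any other group. The log2 fold change was -0.65 with 5-NA (SE 0.0929, adjusted p = 0.00233), a 1.57-fold decrease that was kept when any 1 array was left out. With CBU-028 it was -0.34 with both arrays below control, and did not pass (adjusted p = 0.0526). Without CBU-028 replicate 2 it was -0.43 and passed (adjusted p = 0.0228, with a range of 0.013 to 0.24 over the alternatives).

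MT1F was measured by a pair of probe sets that both fell with 5-NA. Probe set 217165_x_at read 9.75 and 9.90 with EerI, 9.23 and 9.54 with CBU-028 and 9.01 and 9.31 with 5-NA, against 9.78 and 9.77 in control cells. Probe set 213629_x_at read 8.50 and 8.51 with EerI, 7.95 and 8.14 with CBU-028 and 7.88 and 7.96 with 5-NA, against 8.40 and 8.35 in control cells. In both, the CBU-028 and 5-NA arrays overlapped each other and lay below control. The log2 fold changes with 5-NA were -0.62 for 217165_x_at (adjusted p = 0.0134) and -0.46 for 213629_x_at (adjusted p = 0.0087). With CBU-028, 213629_x_at fell by 0.34 (adjusted p = 0.0458), and 217165_x_at was at -0.39 and did not pass (adjusted p = 0.106). The 5-NA calls were lost without 5-NA replicate 1 (adjusted p = 0.0952 for 217165_x_at and 0.0577 for 213629_x_at), control replicate 1 (0.0842 and 0.079) or control replicate 2 (0.0783 and 0.0554), within ranges over the alternatives of 0.00354 to 0.117 for 217165_x_at and 0.00329 to 0.079 for 213629_x_at. The CBU-028 call on 213629_x_at was lost without any 1 of 7 arrays (adjusted p from 0.0636 without either 5-NA array to 0.263 without control replicate 1), and was kept only without CBU-028 replicate 2.

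MT2A, the main metallothionein of many human cell types, had a smaller fitted decrease with 5-NA than the MT1X probe sets, a difference that was not tested. Its probe set 212185_x_at read 12.41 and 12.50 with EerI, 12.09 and 12.23 with CBU-028 and 11.76 and 12.11 with 5-NA, against 12.38 and 12.37 in control cells. Replicate 2 of 5-NA lay within the CBU-028 arrays, and both groups lay below control. MT2A fell by 0.43 with 5-NA (SE 0.116, adjusted p = 0.0353), a 1.35-fold decrease, and was at -0.21 with CBU-028 (adjusted p = 0.332). The 5-NA call was lost without 5-NA replicate 1, where the log2 fold change was -0.26 (adjusted p = 0.175), and without control replicate 1 (0.164), control replicate 2 (0.15) or either EerI array (0.06 each), within a range of 0.00721 to 0.175 over the alternatives.

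MT1G was measured by 1 bright and 1 dim probe set, and MT1E and MT1M did not pass with any compound. MT1G 204745_x_at read 10.53 and 10.54 with EerI, 10.18 and 10.39 with CBU-028 and 9.96 and 10.20 with 5-NA, against 10.54 and 10.48 in control cells. The 5-NA arrays lay below both control arrays, and 5-NA replicate 2 overlapped the CBU-028 arrays. It fell by 0.43 with 5-NA (adjusted p = 0.0247), a call that was lost without 5-NA replicate 1 (0.143), control replicate 1 (0.152) or control replicate 2 (0.104), within a range of 0.0065 to 0.152 over the alternatives. The other MT1G probe set, 210472_at, had a mean near 5 and read 5.12 and 5.26 with 5-NA, against 4.97 and 4.90 in control cells. That is the opposite direction, and it did not pass (log2 fold change 0.26, adjusted p = 0.132). The MT1E probe sets 212859_x_at and 216336_x_at were at -0.36 (adjusted p = 0.119) and -0.16 (0.389) with 5-NA and at -0.40 (0.11) and -0.16 (0.415) with CBU-028, and all 4 arrays of these compounds lay below both control arrays in each. MT1M 217546_at ranged from 4.16 to 4.82 over the 8 arrays and was at -0.36 with EerI (unadjusted p = 0.0231, adjusted p = 0.39), -0.06 with CBU-028 and 0.01 with 5-NA.

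The metallothionein calls are not independent of each other. All 9 of the 11 metallothionein probe sets with a mean log2 of at least 7 end in _x_at, the manufacturer's mark for probes that may also bind related transcripts, and the 2 others are the dim MT1G and MT1M probe sets. The values therefore do not separate single metallothionein genes, and without the _x_at probe sets 0 of the members fell with 5-NA or CBU-028 by limma. Of the 9 _x_at probe sets, 7 fell with 5-NA, 3 with CBU-028 and 0 with EerI by limma. Over all probe sets, 7.9%, 5.27% and 0.17% were called lower. MT1HL1, a metallothionein-like gene on chromosome 1 read by another _x_at probe set, was not a member, and fell by 0.57 with 5-NA (adjusted p = 0.00478). MT3 and MT4, cluster genes known for restricted expression in brain and in squamous epithelium, did not pass with any compound.

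**Figure D3:**
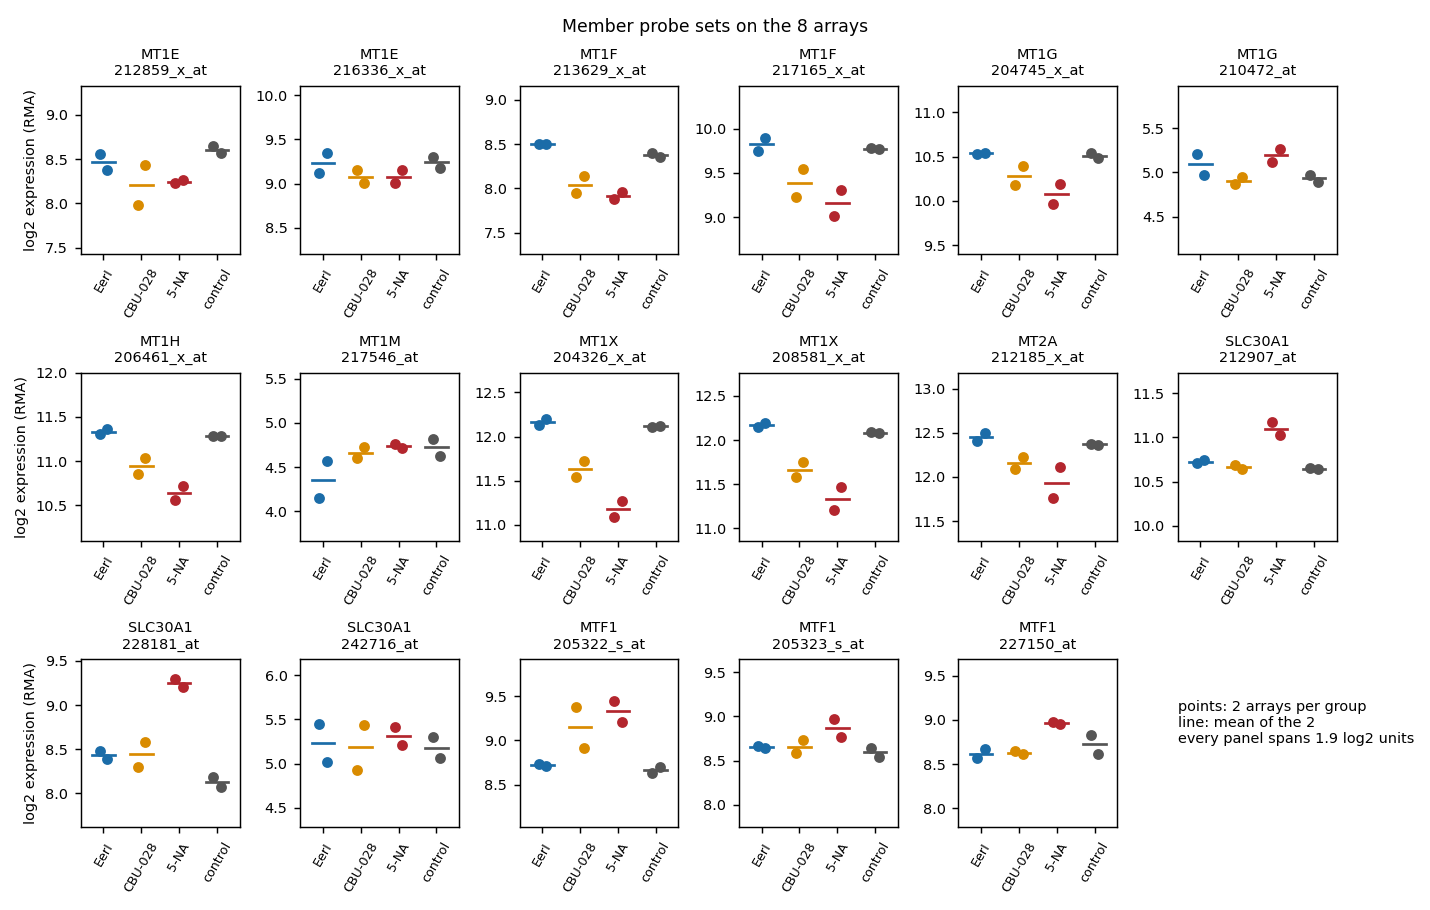
Log2 expression of the 17 member probe sets on the 8 arrays, each panel spanning 1.9 log2 units; points are the 2 arrays of a group and lines their mean, with EerI, CBU-028, 5-NA and control from left to right. In MT1X and MT1H the 5-NA points are the lowest and the CBU-028 points lie between them and control, while in SLC30A1 228181_at and 212907_at the 5-NA points alone stand above the rest.

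SLC30A1, the plasma membrane zinc exporter, had the largest change of any member. Probe set 228181_at read 8.48 and 8.39 with EerI, 8.30 and 8.58 with CBU-028 and 9.30 and 9.21 with 5-NA, against 8.19 and 8.08 in control cells. The 5-NA arrays stood above all others, and the EerI and CBU-028 arrays overlapped each other just above control. The log2 fold change with 5-NA was 1.12 (SE 0.106, adjusted p = 0.000403), a 2.17-fold increase that was kept when any 1 array was left out. It was the only member probe set that also changed at least 2-fold against control, where 0.483% of all probe sets were called and at least 2-fold higher. With EerI it was at 0.30 (95% interval 0.06 to 0.54, adjusted p = 0.364), and with CBU-028 at 0.31 (95% interval 0.07 to 0.55, adjusted p = 0.113). Without CBU-028 replicate 1 the CBU-028 value was 0.45 and passed (adjusted p = 0.0313, with a range of 0.0313 to 0.426 over the alternatives).

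The brighter SLC30A1 probe set, 212907_at, moved the same way by less. It read 10.71 and 10.74 with EerI, 10.69 and 10.64 with CBU-028 and 11.17 and 11.03 with 5-NA, against 10.65 and 10.64 in control cells. Here too the 5-NA arrays were above all others. SLC30A1 by this probe set rose by 0.46 with 5-NA (SE 0.0824, adjusted p = 0.00656), and the call was lost without control replicate 1 (0.0552) or control replicate 2 (0.0605), within a range of 0.000744 to 0.0605. The third probe set, 242716_at, was dim, read between 4.92 and 5.45 on the 8 arrays with every group overlapping, and was at 0.13 with 5-NA (adjusted p = 0.725).

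MTF1 was read by 3 probe sets, of which 1 passed with 5-NA. Probe set 205322_s_at read 8.73 and 8.71 with EerI, 9.38 and 8.92 with CBU-028 and 9.45 and 9.21 with 5-NA, against 8.63 and 8.70 in control cells. The CBU-028 and 5-NA arrays overlapped each other and lay above both EerI and control arrays. MTF1 by this probe set rose by 0.66 with 5-NA (SE 0.144, adjusted p = 0.0144), and was at 0.49 with CBU-028, which did not pass (adjusted p = 0.0688). The 5-NA call was lost without 5-NA replicate 1 (0.107), control replicate 1 (0.0965) or control replicate 2 (0.071), within a range of 0.00182 to 0.13. Without CBU-028 replicate 2 the CBU-028 value was 0.72 and passed (adjusted p = 0.00565, with a range of 0.00565 to 0.299). The other probe sets, 205323_s_at and 227150_at, were at 0.28 (adjusted p = 0.0937) and 0.25 (0.118) with 5-NA, with both 5-NA arrays above both control arrays in each.

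Direct comparisons of the compounds at the same dose and time asked where a change in structure went with a different response. In the paper, 5-NA was toxic to a lymphoma line at a lower concentration than EerI, so the same dose need not be equally active. Structure and effective dose cannot be told apart here. 5-NA, the NFC domain alone, differed from EerI in 11 of 17 member probe sets. Of these, 7 metallothionein probe sets (of MT1X, MT1H, MT1F, MT1G and MT2A) were called lower, where 7.08% of all probe sets were, and 4 were called higher, 2 each of SLC30A1 and MTF1, where 6.93% of all were. MT1X 204326_x_at was 0.98 lower (adjusted p = 0.000602), and SLC30A1 228181_at was 0.82 higher (adjusted p = 0.00169). The number called lower was 4 without 5-NA replicate 1 or EerI replicate 2, and the number called higher was 1 without 5-NA replicate 1 or EerI replicate 1 and 2 without 5-NA replicate 2 or EerI replicate 2.

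5-NA also differed from CBU-028, chiefly in SLC30A1. SLC30A1 was higher by 0.81 in 228181_at (adjusted p = 0.00256) and by 0.44 in 212907_at (adjusted p = 0.0116), and MTF1 227150_at was higher by 0.34 (adjusted p = 0.0494). These were the 3 of 17 member probe sets called higher, where 5.51% of all probe sets were called higher. The MTF1 call was lost whichever 1 array was left out, and also after median centring (limma, adjusted p = 0.0584). Only MT1X 204326_x_at was called lower, by 0.44 (adjusted p = 0.0206), where 5.09% of all were called lower. For MT2A the difference was -0.23 (95% interval -0.49 to 0.04), so the 2 compounds were not distinguished in MT2A at this precision. Without 5-NA replicate 1, 1 member was called higher and 0 lower, and without any other 1 array 2 were called higher. The number called lower was 0 without CBU-028 replicate 2 and 2 without CBU-028 replicate 1.

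CBU-028 and EerI, which share the NFC domain and differ in the aromatic group, differed in 3 metallothionein probe sets. MT1X was lower with CBU-028 by 0.54 in 204326_x_at (adjusted p = 0.0248) and by 0.50 in 208581_x_at (adjusted p = 0.0397), and MT1F 213629_x_at by 0.46 (adjusted p = 0.031), where 1.67% of all probe sets were called lower. None of the 17 was called higher by limma, where 1.28% of all were, and 2 were higher at unadjusted p under 0.05. In SLC30A1 the difference was 0.01 for 228181_at (95% interval -0.23 to 0.25) and -0.06 for 212907_at (95% interval -0.25 to 0.13). The number called lower was 0 without CBU-028 replicate 1 or without any 1 array of EerI or control, 2 without either 5-NA array and 6 without CBU-028 replicate 2, where 1 was also called higher. Comparisons that share control or compound arrays are not independent of each other.

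Calls among the other SLC30 exporters were few. Most of the 9 other members of the SLC30 family move zinc into organelles and vesicles or out of the cell. Of the 9, 1 rose and 1 fell with 5-NA, 1 rose with CBU-028 and 0 passed with EerI by limma (2 were higher with EerI at unadjusted p under 0.05). SLC30A7, which carries zinc into the Golgi, read 10.44 and 10.52 with 5-NA, against 9.90 and 9.93 in control cells. SLC30A7 rose by 0.57 with 5-NA (adjusted p = 0.0028), and a second probe set of it by 0.44 (adjusted p = 0.0211), while a dimmer one was at -0.08. SLC30A9 fell by 0.41 with 5-NA (adjusted p = 0.0276), and SLC30A6, the partner of the secretory pathway exporter SLC30A5, rose by 0.32 with CBU-028 (adjusted p = 0.0393); both calls were lost in leave-one-out fits, up to 0.166 and 0.229. Over all genes, 7.87% were called higher and 10.9% lower with 5-NA and 5.49% higher with CBU-028, so these counts lie near the background. The median log2 fold change of the 9 was 0.07 with 5-NA, beside -0.03 over all 19775 genes.

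Of the 14 SLC39 importers, which bring zinc into the cytosol, 2 fell with 5-NA, 1 with CBU-028 and 1 with EerI, and 0 rose by limma with any of them (1 at unadjusted p under 0.05 with 5-NA and with CBU-028, and 0 with EerI). SLC39A10, a plasma membrane importer, read 9.71 and 9.77 with EerI and 9.85 and 9.68 with CBU-028, against 10.30 and 10.38 in control cells. It fell by 0.60 with EerI (adjusted p = 0.025) and by 0.57 with CBU-028 (adjusted p = 0.00475), and was at -0.26 with 5-NA (adjusted p = 0.0869). The EerI call was lost in 6 of the 8 leave-one-out fits (up to 0.308) and the CBU-028 call in 1 (0.0554). With 5-NA, SLC39A11 fell by 0.72 (adjusted p = 0.00359) and SLC39A13, which sits on vesicles and the Golgi, by 0.58 (adjusted p = 0.00326), and both calls were kept when any 1 array was left out. The second SLC39A13 probe set fell with CBU-028 as well (by 0.39, adjusted p = 0.0186), where the first was at -0.28 (0.0936). Over all genes, 10.9% were called lower with 5-NA, 7.1% with CBU-028 and 0.263% with EerI, so the counts with 5-NA and CBU-028 lie near the background. The median of the 14 was -0.11 with 5-NA, beside -0.03 over all genes.

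**Figure D4:**
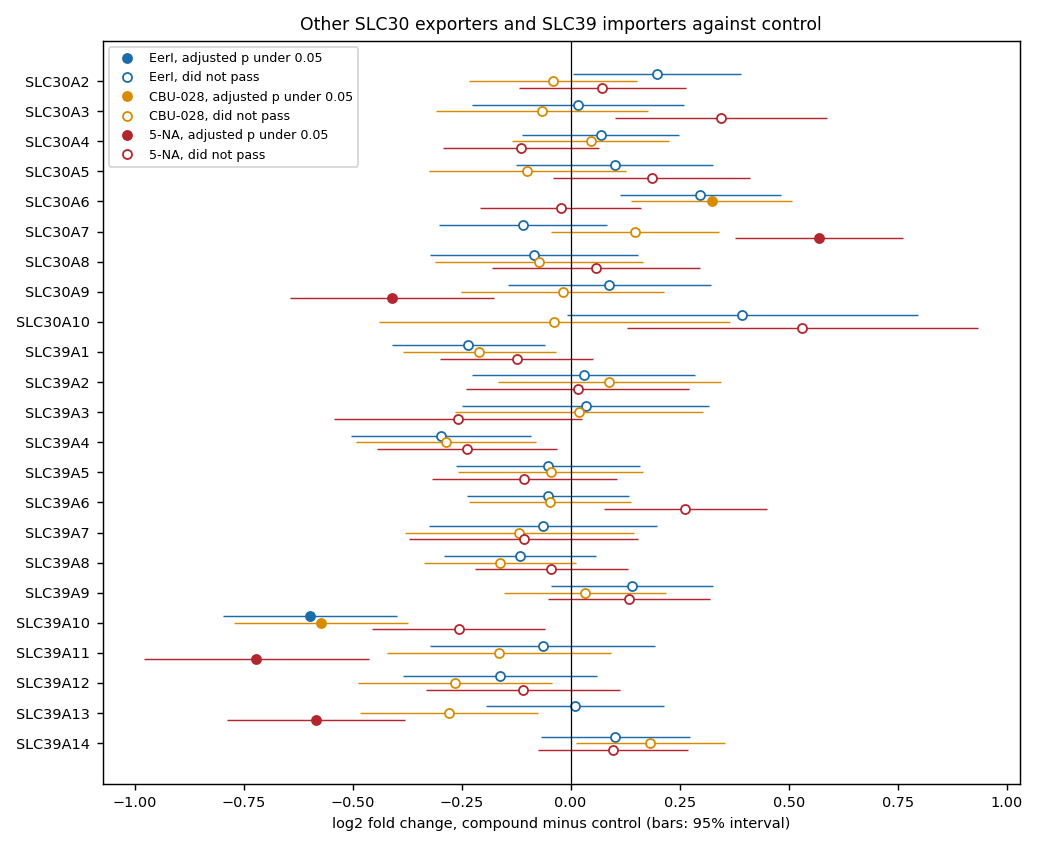
Log2 fold change against control of 9 other SLC30 exporters and 14 SLC39 importers, 1 probe set per gene, with EerI (blue), CBU-028 (orange) and 5-NA (red); bars are 95% intervals from limma, and filled points passed at adjusted p under 0.05. Most points lie near 0, with SLC30A7 at 0.57 and SLC39A11 at -0.72 the farthest filled points with 5-NA.

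Of 11 copper handling genes, 1 rose and 3 fell with 5-NA (7.87% and 10.9% of all genes), 1 rose and 3 fell with CBU-028 (5.49% and 7.1%), and 1 fell with EerI (0.263%). SLC31A1, the copper importer, rose by 0.54 with CBU-028 (adjusted p = 0.006) and by 0.48 with 5-NA (adjusted p = 0.00688), while SCO2, a copper chaperone of cytochrome oxidase, fell with all 3 compounds, by 0.59 with EerI, 0.73 with CBU-028 and 0.51 with 5-NA. ATP7B, a copper-exporting ATPase, fell by 0.72 with CBU-028 (adjusted p = 0.00179), and SLC31A2 by 0.57 (adjusted p = 0.00273). CCS, the copper chaperone of superoxide dismutase, fell by 0.34 and COX11 by 0.32 with 5-NA. The calls on SCO2 with EerI, CCS and COX11 with 5-NA were each lost in at least 4 of 8 leave-one-out fits, those on SCO2 with 5-NA in 3, on SLC31A1 with 5-NA in 2 and with CBU-028 in 1.

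Genes known from other work to be induced by cadmium or arsenite, stresses that also induce metallothioneins, were the next list. Of 10 measured, 3 rose with EerI, 6 with CBU-028 and 10 with 5-NA, where 0.506%, 5.49% and 7.87% of all genes were called higher, and 0 fell by limma (1 was lower with CBU-028 at unadjusted p under 0.05). HMOX1, the heme-degrading enzyme, read 12.77 and 12.78 with EerI, 13.68 and 13.47 with CBU-028 and 13.07 and 13.01 with 5-NA, against 9.82 and 9.86 in control cells. The groups did not overlap, and HMOX1 rose by 2.94 with EerI, 3.74 with CBU-028 and 3.20 with 5-NA. With 5-NA, the heat shock gene HSPA6 rose by 3.08 and SLC7A11, the cystine importer, by 2.04. GCLM, a subunit of the enzyme that starts glutathione synthesis, rose by 1.48 with 5-NA. SLC7A11 and GCLM were not particular to 5-NA. SLC7A11 read 11.60 and 11.61 with EerI and 11.63 and 11.55 with CBU-028. Its 5-NA arrays read less, 10.79 and 10.71, against 8.68 and 8.73 in control cells. GCLM read 11.97 and 11.95 with EerI and 12.55 and 12.45 with CBU-028, against 11.12 and 11.16 in control cells. The median log2 fold change of the 10 was 0.35 with EerI, 0.46 with CBU-028 and 1.23 with 5-NA, against metallothionein medians of 0.05, -0.34 and -0.43. Of 7 measured glucocorticoid-responsive genes, 2 rose with EerI, 2 with CBU-028 and 3 with 5-NA, against the same shares of all genes, and KLF9 fell with 5-NA by 0.38 (adjusted p = 0.0416), where 10.9% of all genes were called lower. TSC22D3 (GILZ), a glucocorticoid target, rose by 1.06 with EerI, 1.43 with CBU-028 and 0.50 with 5-NA, and DUSP1 by 0.56, 0.81 and 1.20. SGK1 had the largest rise of this list with 5-NA, at 9.65 and 9.29 against 8.23 and 8.21 in control cells. It read 8.04 and 8.12 with EerI and 7.96 and 7.89 with CBU-028. The calls on KLF9 with 5-NA and DUSP1 with EerI were lost in 5 and 4 of 8 leave-one-out fits, and that on TSC22D3 with 5-NA in 2.

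Profiles over the 8 arrays were set beside those of other genes as a description. Among 3107 probe sets with a mean of at least 7 and group means spanning at least 1.5-fold, the 5 genes most like MT2A were CBR4 (r = 0.9889), MT1HL1 (r = 0.9773), CCDC9B (r = 0.9769), MT1F (r = 0.976) and MT1X (r = 0.9721), and 3 of these 5 are metallothionein probe sets that may bind the same transcripts. The 5 genes most like SLC30A1 212907_at were ARF1 (r = 0.9967), DNAJB1 (r = 0.9946), TRIM71 (r = 0.9936), ARID4B (r = 0.9916) and HSPA6 (r = 0.9887), among 3106 probe sets. These coefficients rest on 8 arrays in 4 groups, so they mainly restate the order of the group means.

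Genes beside the metallothionein cluster did not share a direction. Within 250 kb, HERPUD1, an ER stress gene of the degradation machinery, was higher by 1.32 with EerI, 1.24 with CBU-028 and 1.07 with 5-NA. With 5-NA, OGFOD1 was higher by 0.43 (adjusted p = 0.0117) and BBS2 lower by 0.73 (adjusted p = 0.000903), and GNAO1 was lower by 0.36 with CBU-028 (adjusted p = 0.0204) and by 0.32 with 5-NA (adjusted p = 0.0237). NUDT21, NUP93 and SLC12A3 did not pass with any compound. The window was chosen with the member values known.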

How the data were processed

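Per the labels, RNA came from duplicate 293T samples of each compound and of control, and it was hybridised to Affymetrix arrays. The authors summarised the arrays with RMA, which corrects background, quantile-normalizes and fits probe sets, and ran an ANOVA in Partek; versions are not given in the sources used here. The deposited values are log2 expression per probe set. RMA gives no detection call, and the number of arrays limits the precision. Probe sets were named from the platform annotation (41097 with 1 symbol, 1801 with several, 11777 with none) and placed through RefSeq (GRCh38.p14). All 8 arrays entered 1 fit of 4 group means in limma (version 3.58.1, R 4.3.3), two-sided, with Benjamini-Hochberg adjustment over all 54675 probe sets in each of 6 comparisons, and a call at adjusted p under 0.05; the script was tested on simulated data. An exact test of 2 arrays against 2 cannot go below p = 0.333. The median SE of a log2 fold change was 0.099. All member probe sets are described; from each list (other metallothioneins, SLC30 and SLC39 transporters, copper handling, cadmium or arsenite induced, glucocorticoid responsive, HEK293 and B cell markers) at most 4 called genes per comparison are named, by the largest change of the brightest single-symbol probe set. Probe sets added to show disagreement, genes beside the cluster, MT3 and MT4 are outside that rule and were chosen after their values were seen. Members and lists were chosen with earlier results of these data known. Alternatives tried were median centring, a renewed quantile normalization, filters on dim probe sets, fits of the compared groups alone, a replicate block, a trended robust prior, the methods' ANOVA, leaving out _x_at probe sets, 1 probe set per gene, and leaving out each array.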

Additional observations from a re-analysis of the deposited data

How the results depend on the processing

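Over the alternatives tried, no log2 fold change that passed changed sign. Counts of member probe sets that moved by more than 1.5 times are given by comparison. For 5-NA against control, the number lower was 4 by the methods' ANOVA with adjusted p and 0 without _x_at probe sets, and the number higher was 5 by the methods' ANOVA with unadjusted p; leaving out 1 array gave 3 to 8 lower and 1 to 3 higher. For CBU-028 against control, the number lower was 0 in the compared groups alone, by the methods' ANOVA with adjusted p and without _x_at probe sets, and 1 with 1 probe set per gene; the number higher was 1 after a renewed quantile normalization, with a mean log2 of at least 7 and with a trended robust prior, and leaving out 1 array gave 0 to 6 lower and 0 to 1 higher. For 5-NA against EerI, the number lower was 4 by the methods' ANOVA with adjusted p and 0 without _x_at probe sets, the number higher was 2 by that ANOVA and with 1 probe set per gene, and leaving out 1 array gave 4 to 7 lower and 1 to 4 higher. For CBU-028 against EerI, the number lower was 0 in the compared groups alone, by the methods' ANOVA with adjusted p and without _x_at probe sets, and 1 with 1 probe set per gene; leaving out 1 array gave 0 to 6 lower and 0 to 1 higher. For 5-NA against CBU-028, the number higher was 1 in the compared groups alone and with 1 probe set per gene; the number lower was 3 with a mean log2 of at least 7, with a trended robust prior and by the methods' ANOVA with unadjusted p, and 0 in the compared groups alone, by that ANOVA with adjusted p, without _x_at probe sets and with 1 probe set per gene; leaving out 1 array gave 1 to 2 higher and 0 to 2 lower. For EerI against control, both counts stayed at 0 in limma throughout. Leaving out the _x_at probe sets removes 9 of the 11 metallothionein probe sets by construction, 1 probe set per gene leaves 9 probe sets, and the compared groups alone leave 2 residual degrees of freedom; for the other settings the cause was not tested.

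The replicate numbers do not pair the arrays: deviations of same-numbered arrays correlated at -0.146 to 0.146 between groups. With the replicate number as a block, MT1F 213629_x_at with CBU-028 no longer passed (adjusted p = 0.057), MT1H with CBU-028 passed (0.0481), MTF1 227150_at with 5-NA against CBU-028 no longer passed (0.0646), and no other member call changed; the number of members lower with CBU-028 stayed at 3.

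With 2 arrays a group, even differences well above the median SE of 0.099 can go uncalled. By limma, MT1E 212859_x_at at -0.40 with CBU-028 (adjusted p = 0.11) and SLC30A1 228181_at at 0.30 with EerI (0.364) did not pass. A missing call therefore does not show that an RNA was unchanged. The dim probe sets (MT1G 210472_at, MT1M 217546_at and SLC30A1 242716_at) had low signal, so their lack of a call does not show that these RNAs were unchanged. Cross-binding of the _x_at probe sets was not tested.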
